A study of Mus musculus with 2 samples.

Results

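Zinc finger genes named Zfp in mouse were compared between 2 RNA libraries made from germinal centre B cells, which proliferate in spleen and lymph nodes after an antigen is met and refine their antibody genes by mutation and selection. A gene was taken when the deposited table called it protein-coding, its symbol was Zfp followed by a number and at most 1 letter, and the higher of its 2 normalized read counts was at least 100. This left 252 of the 41214 genes in the table, from 356 protein-coding rows with such a symbol. Because the same normalized counts that are compared here also chose the genes, the counts and ratios below describe the chosen genes and carry no test.

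Most of these genes encode C2H2 zinc finger proteins. In a C2H2 finger, a pair of cysteines and a pair of histidines hold 1 zinc ion, and neighbouring fingers joined by a short linker read DNA along the major groove. Many of the proteins also carry a KRAB box, a short domain that recruits the corepressor KAP1 (gene Trim28) and, through it, histone methylation and deacetylation, and that is known for the silencing of retroelements and the upkeep of imprints. Some members have other jobs: Zfp36 is an RNA-binding protein that promotes mRNA decay, and Zfp318 is needed for IgD expression in mature B cells.

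C57BL/6 mice had received 1000000000 sheep red blood cells by intravenous injection, and on day 10 spleen cells that were B220+, Fas+, GL7+ and CD138- were sorted. One library was labelled Cbl-/-Cblb-/-, lacking by its label the E3 ubiquitin ligases Cbl and Cblb, and 1 library was labelled wild type. The labels give neither the sex nor the age of the mice, nor how many were pooled for a library, nor which cells carried the deletion. With 1 library per genotype no difference has a replicate check, no test across samples exists, and in such bulk RNA fewer cells of a type and less RNA per cell cannot be told apart. Counts of reads assigned to genes totalled 38223328 from the library labelled Cbl-/-Cblb-/- and 26749540 from the library labelled wild type. A normalized read is a read divided by the size factor the authors gave its library, and intervals of folds below are exact 95% intervals that cover counting error only.

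Neither deleted gene was lower in the library that carries its deletion in the label. Cbl had 1693 reads from the library labelled Cbl-/-Cblb-/-, against 118 from the library labelled wild type, a normalized ratio of 7.01 (5.81 to 8.52). Cblb had 4061 reads from the library labelled Cbl-/-Cblb-/-, against 700 from the library labelled wild type, a ratio of 2.83 (2.62 to 3.08). The columns of the table were matched to the samples by their titles alone, and the table counts whole genes, so reads from exons outside a deletion would be included. An exchange of the 2 labels or columns and transcript that remains after the deletions cannot be told apart here. Every direction below is that of the library labelled Cbl-/-Cblb-/- relative to the library labelled wild type, and an exchange would turn each of them round. The 9 germinal centre B cell markers reported, among them Bcl6, Gcsam and S1pr2, were abundant, at 2819 to 53839 normalized reads from the library labelled Cbl-/-Cblb-/- and 4137 to 177690 from the library labelled wild type. Summed T cell markers (Cd3e, Cd4 and Cd8a) stood at 15.4 normalized reads from the library labelled Cbl-/-Cblb-/- and 12.9 from the library labelled wild type. The 3 macrophage markers (Emr1, Csf1r and Lyz2) were each higher in the library labelled Cbl-/-Cblb-/-, with a sum of 598 normalized reads, against 343 from the library labelled wild type. Plasma cell markers (Sdc1, Prdm1 and Igj) summed to 22528 and 20840 normalized reads from the library labelled Cbl-/-Cblb-/- and the library labelled wild type. Most of each sum was Igj, at 22154 and 20630. All 3 were higher in the library labelled Cbl-/-Cblb-/-, Prdm1 by 2.13-fold (1.67 to 2.75), Sdc1 by 1.36-fold (1.02 to 1.82) and Igj by 1.07-fold (1.05 to 1.10). Of the hepatocyte markers, taken up because the deposited table is named after a liver line, Alb and Fgb had 0 reads in both libraries and Apoa1 had 1 read from the library labelled Cbl-/-Cblb-/- and 3 from the library labelled wild type. The part of macrophage RNA in the Zfp values was not tested.

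A finger of each of 8 members shows the unit the set is built from. These members have the 4 highest and the 4 lowest ratios of the library labelled Cbl-/-Cblb-/- over the library labelled wild type among 171 members. The longest coding sequence of each of the 171 holds, within 1 exon, a finger of the commonest spacing followed by its linker. The 171 are not a full list, and members outside it may also hold such a finger. Each line gives the first such finger of the gene, 78 bases or 26 codons on the coding strand of GRCm38, and the capitals mark the codons of the cysteine pair and the histidine pair. The first 4 lines are the highest ratios and the last 4 the lowest.
Zfp955a: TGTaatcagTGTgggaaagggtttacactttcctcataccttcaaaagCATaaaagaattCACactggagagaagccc
Zfp146: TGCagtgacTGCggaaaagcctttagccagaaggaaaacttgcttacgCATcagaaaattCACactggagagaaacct
Zfp445: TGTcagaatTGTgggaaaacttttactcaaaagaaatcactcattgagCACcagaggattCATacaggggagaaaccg
Zfp869: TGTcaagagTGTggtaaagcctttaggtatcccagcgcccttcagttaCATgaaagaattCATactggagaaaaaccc
Zfp296: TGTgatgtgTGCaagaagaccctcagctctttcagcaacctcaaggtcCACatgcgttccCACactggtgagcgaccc
Zfp637: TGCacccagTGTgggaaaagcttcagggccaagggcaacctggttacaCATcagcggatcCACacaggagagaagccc
Zfp358: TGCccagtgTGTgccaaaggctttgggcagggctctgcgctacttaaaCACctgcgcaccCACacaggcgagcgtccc
Zfp771: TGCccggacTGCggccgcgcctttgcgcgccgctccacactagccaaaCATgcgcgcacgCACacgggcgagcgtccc
The 4 fingers from the high end lay at chr17:33241618-33241695, chr7:30162319-30162396, chr9:122852892-122852969 and chr8:69707301-69707378, all on the minus strand. Those from the low end lay at chr7:19579861-19579938, chr6:117845270-117845347, chr8:3496221-3496298 and chr7:127253856-127253933, all on the plus strand. The zinc-binding codons sit at the same places in all 8 because the search fixed their spacing, and between them the bases differ. Zfp955a and Zfp869 shared 54 of the 78 bases, as did Zfp358 and Zfp771, whereas Zfp296 and Zfp771 shared 35. Among the 8 printed, GC content was 41.0% to 44.9% at the high end and 55.1% to 73.1% at the low end. Over the 171 members taken in this way, the median GC content of the finger was 44.9% in the 77 members at least 2-fold higher, 61.5% in the 7 members at least 2-fold lower and 47.4% in the other 87.

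The KRAB box is shown for 4 members of the ends described below, 87 bases or 29 codons each. The capitals mark the stretches that matched the 2 searched amino acid patterns at the start and the end of the box.
Zfp955a: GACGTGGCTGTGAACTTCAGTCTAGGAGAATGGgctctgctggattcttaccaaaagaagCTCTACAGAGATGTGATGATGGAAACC
Zfp869: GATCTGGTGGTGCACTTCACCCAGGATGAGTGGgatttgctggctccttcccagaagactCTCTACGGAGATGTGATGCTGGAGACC
Zfp935: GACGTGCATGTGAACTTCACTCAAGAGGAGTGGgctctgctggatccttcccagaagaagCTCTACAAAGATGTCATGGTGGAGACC
Zfp688: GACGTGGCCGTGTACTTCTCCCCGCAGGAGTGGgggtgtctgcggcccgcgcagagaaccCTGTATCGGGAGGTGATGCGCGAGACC
They lay at chr17:33244030-33244116, chr8:69708361-69708447, chr13:62456955-62457041 and chr7:127421831-127421917 of GRCm38, each on the minus strand. Zfp688 was 1 of only 2 members with a KRAB pattern that were lower by 2-fold or more.

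Of the 356 Zfp-named rows, 330 had at least 1 read and 26 had none. The 252 members hold 251 symbols, since Zfp319 stands in the table under 2 identifiers, with log2 ratios of 0.48 and -0.49. In both libraries 201 members reached 100 normalized reads, 46 did so only in the library labelled Cbl-/-Cblb-/- and 5 only in the library labelled wild type. A member that passed in 1 library alone had to differ between them. The other 78 rows with a read stayed under the floor, 60 of them with the higher value in the library labelled Cbl-/-Cblb-/- and 18 with the higher value in the library labelled wild type. Just inside the floor were Zfp583, with 101 normalized reads from the library labelled Cbl-/-Cblb-/- and 44.4 from the library labelled wild type, and Zfp759, with 106 and 31.5 in the same libraries. Just outside were Zfp626, with 99.95 normalized reads from the library labelled Cbl-/-Cblb-/- and 7.15 from the library labelled wild type, and Zfp955b, with 97.2 and 1.43.

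Members took 331051 reads of the library labelled Cbl-/-Cblb-/-, 0.866% of its reads (Wilson 95% interval 0.863 to 0.869), against 106198 reads and 0.397% (0.395 to 0.399) of the library labelled wild type. The median member had 501 normalized reads from the library labelled Cbl-/-Cblb-/- and 316 from the library labelled wild type. From the library labelled Cbl-/-Cblb-/- 63 members reached 1000 normalized reads, against 36 from the library labelled wild type. The median log2 ratio, taken as log2 of the normalized reads plus 1 from the library labelled Cbl-/-Cblb-/- over the same from the library labelled wild type, was 0.90, with quartiles of 0.09 and 1.55. That scale understates differences of low genes. Positive ratios were found in 192 of the 252. Higher by 2-fold or more were 115 members (45.6%), where 27.8% of all 10443 genes over the same floor were. At least 2-fold lower were 22 members (8.73%), where 23.3% of all genes over the floor were, and 115 members lay between. Over the 9489 other protein-coding genes the median log2 ratio was 0.16. Among genes over the floor in both libraries the median was 0.72 for the 201 members and 0.13 for 8671 other protein-coding genes. These shares come from the contrast that chose the members.

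**Figure D1:**
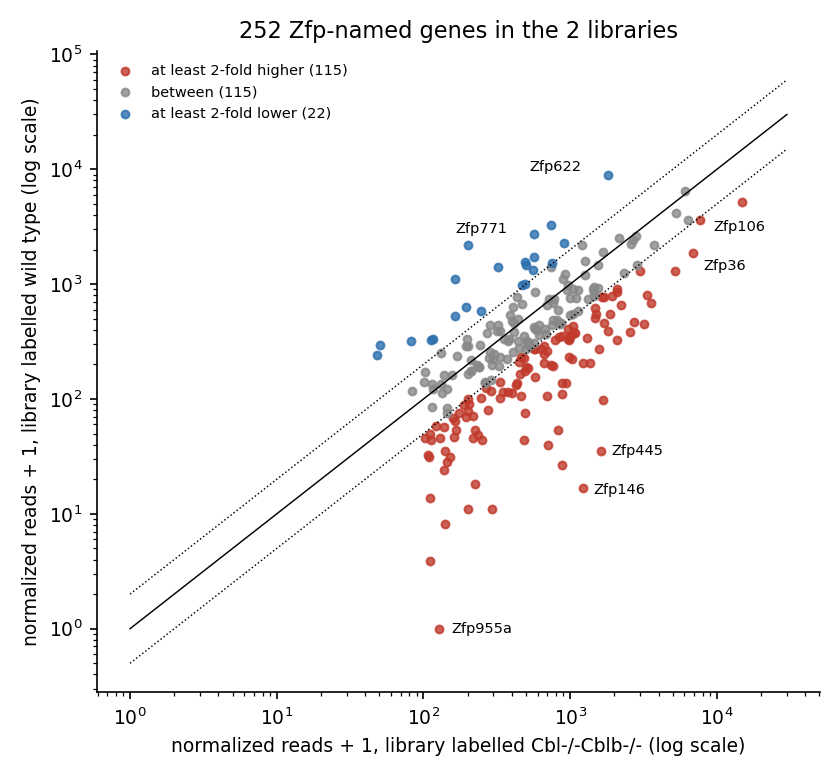
Normalized reads plus 1 of each of the 252 members from the library labelled Cbl-/-Cblb-/- (x axis, log scale) and from the library labelled wild type (y axis, log scale), 1 point per gene. The solid line marks equal values and the dotted lines 2-fold differences; 115 points lie on or below the lower dotted line, 22 on or above the upper one, and Zfp955a stands alone at 0 reads from the library labelled wild type.

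The 10 members with the highest ratios each had under 100 normalized reads from the library labelled wild type. First by the ratio with 1 added to each value stood Zfp955a (ENSMUSG00000094441, chr17:33239718-33255145, minus strand), which had 182 reads from the library labelled Cbl-/-Cblb-/- and 0 from the library labelled wild type. Set against a floor of 3 reads from the library labelled wild type, it was at least 29.6-fold higher, and the exact 95% lower limit, which also covers the counting error of the 182 reads, was 23.9-fold. Its first place rests on the 1 added: with 5 added its log2 ratio was 4.72, under those of Zfp146 (5.88), Zfp445 (5.37) and Zfp869 (4.85). It was the only member with 0 reads in either library. By annotation, 51.8% of the 50-base windows of its exons occur also in another gene, so its count is uncertain. Next came Zfp146 (ENSMUSG00000037029, chr7:30161269-30169750, minus strand), whose protein consists almost wholly of fingers. It had 1739 reads (1216 normalized) from the library labelled Cbl-/-Cblb-/- and 11 (15.7 normalized) from the library labelled wild type, a 77.2-fold ratio (43.1 to 155). Only 0.615% of its windows were shared with another gene.

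Zfp445 (ENSMUSG00000047036, chr9:122844529-122866006, minus strand) encodes a KRAB protein, with a SCAN domain, that maintains DNA methylation at imprinting control regions. It had 2318 reads (1620 normalized) from the library labelled Cbl-/-Cblb-/- and 24 (34.3 normalized) from the library labelled wild type, 47.2-fold higher (31.6 to 73.8). Zfp869 (chr8:69706332-69710724, minus strand), a KRAB gene with 12 fingers, had 1262 reads from the library labelled Cbl-/-Cblb-/- and 18 from the library labelled wild type, 34.3-fold higher (21.6 to 58.0). Zfp871 (chr17:32765496-32788287, minus strand), a KRAB gene with 15 fingers, had 2377 reads from the library labelled Cbl-/-Cblb-/- and 68 from the library labelled wild type, 17.1-fold higher (13.4 to 22.1). These genes thus rest on over 1000 reads from the library labelled Cbl-/-Cblb-/-, and their uncertainty comes from the few reads from the library labelled wild type.

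Lower counts lay behind most of the rest of the 10. Zfp235, with 15 fingers, had 156 reads from the library labelled Cbl-/-Cblb-/- and 2 from the library labelled wild type, a ratio of 38.1 with an interval from 10.4 to 317. Zfp607, with 18 fingers, had 286 reads from the library labelled Cbl-/-Cblb-/- and 7 from the library labelled wild type (19.96-fold, 9.56 to 50.1). Zfp780b, with 21 fingers, had 200 reads from the library labelled Cbl-/-Cblb-/- and 5 from the library labelled wild type (19.5-fold, 8.24 to 60.8). All 3 are KRAB genes of chromosome 7. Zfp433 had 1008 reads from the library labelled Cbl-/-Cblb-/- and 27 from the library labelled wild type (18.2-fold, 12.5 to 27.8), and 84.3% of its windows are shared. Zfp935 had 421 reads from the library labelled Cbl-/-Cblb-/- and 7 from the library labelled wild type (29.4-fold, 14.1 to 73.5). All of the Zfp935 windows are shared and its exons overlap another gene, so the source of its reads is uncertain. KRAB patterns were found in 9 of the 10, all but Zfp146. In 9 of the 10, all but Zfp869, the exons of GENCODE M21 were at least 1.4 times as long as the length in the deposited table, against 4 of the 10 lowest and 56 of all 251 members in that annotation. The part of these longer gene models in the ratios was not tested. The median log2 ratio of the 56 was 0.91 and that of the other 195 was 0.90. The median deposited length of the 56 was 2664.5 bases, against 4350 for the 195. As residuals from the fit on gene length described below, their medians were 0.99 and 0.47. Other protein-coding genes with and without such longer models had residual medians of 0.28 and -0.16.

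At the low end stood Zfp771 (ENSMUSG00000054716, chr7:127244274-127254803, plus strand), with 8 fingers and no KRAB pattern. It had 286 reads (199.9 normalized) from the library labelled Cbl-/-Cblb-/- and 1521 (2176 normalized) from the library labelled wild type, 10.9-fold lower (9.59 to 12.4). Zfp524 had 235 reads from the library labelled Cbl-/-Cblb-/- and 779 from the library labelled wild type, 6.78-fold lower (5.86 to 7.88), with many of its windows shared with another gene and 741 exon bases overlapping another gene. Zfp575 had 71 and Zfp428 68 reads from the library labelled Cbl-/-Cblb-/-, against 205 and 167 from the library labelled wild type, 5.91-fold (4.49 to 7.85) and 5.03-fold (3.77 to 6.77) lower. Zfp622, described below with the ribosome genes, was the most abundant of the 10 per kb. Zfp444 (814 and 1906 reads from the library labelled Cbl-/-Cblb-/- and the library labelled wild type), Zfp821 (1058 and 2296 reads), Zfp688 (462 and 981 reads), Zfp358 (116 and 221 reads) and Zfp579 (278 and 445 reads) were 4.79-fold, 4.44-fold, 4.35-fold, 3.90-fold and 3.28-fold lower. Among the 10 only Zfp688 had a KRAB pattern. The 10 lowest lay at a median GC content of 56.9% and a median deposited length of 2431 bases, against 42.3% and 2066 bases for the 10 highest. The ends of the range were thus close in deposited length and differed in base composition. The M21 exons were a median of 2.12 times as long as the deposited length in the 10 highest and 1.26 times in the 10 lowest.

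**Figure D2:**
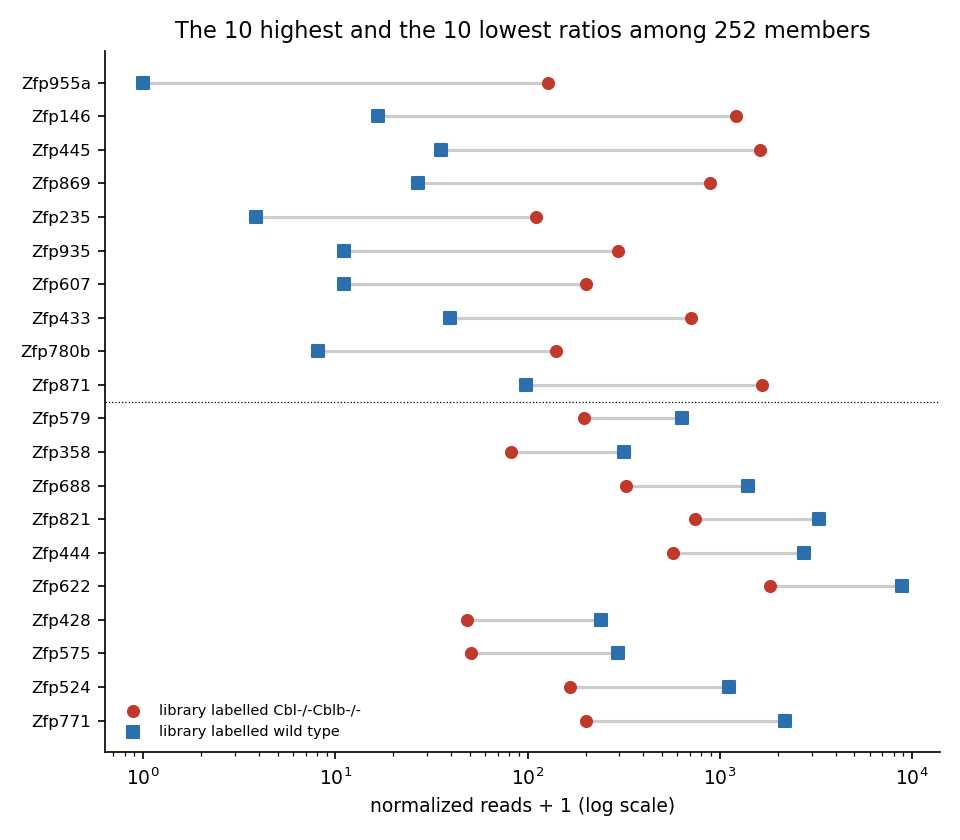
Normalized reads plus 1 (x axis, log scale) of the 10 members with the highest and the 10 with the lowest ratio, with a circle for the library labelled Cbl-/-Cblb-/- and a square for the library labelled wild type joined by a line. In the upper 10 genes every square lies below 100 normalized reads; in the lower 10 the circles run from 47.5 (Zfp428) to 1813 (Zfp622).

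By normalized reads per kb of deposited length, averaged over both libraries, the most abundant member was Zfp36, which encodes tristetraprolin, a CCCH zinc finger protein that binds AU-rich elements of cytokine mRNAs and promotes their decay. Its level was 3856 normalized reads per kb from the library labelled Cbl-/-Cblb-/- and 1037 from the library labelled wild type. Zfp622 followed, with 647 and 3151 per kb from the library labelled Cbl-/-Cblb-/- and the library labelled wild type. Zfp706, a gene for a small protein of 76 residues, had 1365 per kb from the library labelled Cbl-/-Cblb-/- and 1466 from the library labelled wild type, a ratio of 0.931 (0.898 to 0.965). Zfp106 had 1426 and Zfp821 348 normalized reads per kb from the library labelled Cbl-/-Cblb-/-, against 502 and 1544 from the library labelled wild type. The order of the abundant members thus differed between the libraries.

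Of 13 genes listed for roles in RNA, ribosomes and protein turnover, 12 were members. Of these 4 (33.3%) were higher and 3 lower by 2-fold or more, near the shares over all genes of 27.8% and 23.3%. Their median log2 ratio of 0.84 turned to -0.13 as residuals from the fit on gene length described below, with 2 higher and 2 lower. Zfp36 (chr7:28376784-28380253, minus strand) had 9886 reads from the library labelled Cbl-/-Cblb-/- and 1299 from the library labelled wild type, 3.72-fold higher (3.51 to 3.94). The RNA-binding protein gene Zfp106 (chr2:120506820-120563843, minus strand) had 21278 reads from the library labelled Cbl-/-Cblb-/- and 3662 from the library labelled wild type, 2.84-fold higher (2.74 to 2.94). The SUMO ligase gene Zfp451 (log2 ratio 1.46) and Zfp207 (1.08), whose protein binds the spindle checkpoint protein Bub3, were the other 2 on the high side. Their place depended on gene length: as residuals from the fit on length Zfp451 had -0.68, and with GC content added Zfp207 had -0.16. Zfp622 (chr15:25984366-25998481, plus strand), whose yeast relative Rei1 matures the large ribosomal subunit, had 2594 reads from the library labelled Cbl-/-Cblb-/- and 6173 from the library labelled wild type, 4.87-fold lower (4.65 to 5.10). Zfp593, whose yeast relative Bud20 serves the export of the same subunit, had 697 reads from the library labelled Cbl-/-Cblb-/- and 1096 from the library labelled wild type, 3.22-fold lower (2.92 to 3.54), though 1627 of its exon bases overlap another gene. Both ribosome assembly members were lower, while Zfp598, a ligase that marks collided ribosomes, had a log2 ratio of -0.23. Zfp385a, an RNA-binding partner of p53, had 352 reads from the library labelled Cbl-/-Cblb-/- and 411 from the library labelled wild type (2.39-fold lower, 2.07 to 2.76), but a residual of 0.15 once length and GC content were fitted. Zfp346, a binder of double-stranded RNA, and Zfp326, Zfp91 and Zfp830 had log2 ratios of 0.95, 0.87, 0.81 and 0.67, and length residuals of 0.71, -0.05, -0.58 and 1.32.

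Of 9 genes listed for roles in lymphocytes, 7 were members, with a median log2 ratio of 1.20. Of these 4 (57.1%) were higher and 0 lower by 2-fold or more, where 27.8% and 23.3% of all genes over the floor were. These are mostly long genes, with a median of 8594 bases, and as length residuals their median was 0.06, with 2 higher. Zfp318 (chr17:46383731-46420920, plus strand), which lets transcription run through to the IgD exons in mature B cells, had 1475 reads from the library labelled Cbl-/-Cblb-/- and 155 from the library labelled wild type, 4.65-fold higher (3.94 to 5.52). Zfp831 and Zfp148 had log2 ratios of 1.41 and 1.20, but length residuals of 0.06 and -0.11, and Zfp36 is in this list too. Zfp335, needed for the maturation of T cells in mouse, had 3836 reads from the library labelled Cbl-/-Cblb-/- and 1699 from the library labelled wild type, for a log2 ratio of 0.14 and a length residual of -0.24. Zfp281 and Zfp91 had log2 ratios of 0.91 and 0.81 and length residuals of 0.48 and -0.58. The remaining 2 were nearly silent. Zfp683, which encodes Hobit of tissue-resident lymphocytes, had 3 reads from the library labelled Cbl-/-Cblb-/- and 0 from the library labelled wild type. Zfp521, an antagonist of the early B cell factor Ebf1, had 0 reads from the library labelled Cbl-/-Cblb-/- and 2 from the library labelled wild type.

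Broadly expressed DNA-binding regulators, 14 members of 18 listed genes, had a median log2 ratio of 1.22, with 8 (57.1%) higher and 0 lower by 2-fold or more, where 27.8% of all genes were higher. As length residuals the median was 0.52, with 4 higher. The highest was Zfp217 (chr2:170108643-170148103, minus strand), whose protein works with the corepressors CtBP and LSD1. It had 4525 reads from the library labelled Cbl-/-Cblb-/- and 315 from the library labelled wild type, 7.02-fold higher (6.26 to 7.89). Zfp609, reported to work with the Integrator complex, had 991 reads from the library labelled Cbl-/-Cblb-/- and 74 from the library labelled wild type (6.54-fold, 5.16 to 8.40). Zfp292 had 5089 reads from the library labelled Cbl-/-Cblb-/- and 477 from the library labelled wild type (5.21-fold, 4.74 to 5.74). The BTB domain gene Zfp131 had a log2 ratio of 1.77, and Zfp687, Zfp407, Zfp644 and Zfp148 had 1.53, 1.52, 1.24 and 1.20. Zfp384, Zfp281, Zfp263, Zfp143, Zfp592 and Zfp827 lay between 0.34 and 0.96. Zfp219 with 98 and 37 reads, Zfp532 with 4 and 2 reads, and Zfp462 with 0 and 0 reads, from the library labelled Cbl-/-Cblb-/- and the library labelled wild type, were under the floor. Length itself went with the ratio, as given below, and as residuals from the length fit Zfp407 had -0.53 and Zfp148 -0.11, while Zfp644 had -0.46 with GC content added.

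KRAB genes known for imprint or retroelement silencing were divided: of 7 listed, 4 were members, 2 of them higher and 0 lower by 2-fold or more. Over all genes past the floor the shares were 27.8% and 23.3%. Besides Zfp445, the KRAB gene Zfp568, whose protein represses a placental Igf2 transcript in mouse, had 1264 reads from the library labelled Cbl-/-Cblb-/- and 77 from the library labelled wild type, 8.02-fold higher (6.37 to 10.2). Zfp932, a repressor of endogenous retroviruses, had 588 reads from the library labelled Cbl-/-Cblb-/- and 269 from the library labelled wild type, a ratio of 1.07 (0.923 to 1.24), with 37.0% of its windows shared. Zfp809, which silences murine retroviruses through their primer binding site, had 573 reads from the library labelled Cbl-/-Cblb-/- and 333 from the library labelled wild type, a ratio of 0.841 (0.733 to 0.965). The imprint regulator Zfp57 had 1 read from the library labelled Cbl-/-Cblb-/- and 0 from the library labelled wild type, and Zfp819 and Zfp708 had 0 reads in both libraries. A count of 0 allows up to 2.10 normalized reads from the library labelled Cbl-/-Cblb-/- and 4.29 from the library labelled wild type.

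All 30 genes listed for the corepressor and heterochromatin machinery with which KRAB proteins work reached the floor in the higher library. Of these 10 (33.3%) were higher and 1 (3.33%) lower by 2-fold or more, where 27.8% and 23.3% of all genes were, and the median log2 ratio was 0.67. As length residuals the median was 0.25, with 4 higher and 3 lower. Trim28, the gene of KAP1 itself, had 10333 normalized reads from the library labelled Cbl-/-Cblb-/- and 16906 from the library labelled wild type, for a log2 ratio of -0.71. The histone methyltransferase gene Ehmt2 had -0.89, and Mbd3, of the deacetylase complex NuRD, was the lowest at -2.44. Gatad2b, also of NuRD, was the highest at 4.08, with 1827 reads from the library labelled Cbl-/-Cblb-/- and 52 from the library labelled wild type. The DNA methyltransferase gene Dnmt1 followed at 2.56 and Fam208a, of the HUSH silencing complex, at 2.05. In Gatad2b the M21 exons were 6.00 times as long as the deposited length. Trim28 was thus lower while the median KRAB member was higher.

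Protein architecture was read from the translated longest coding sequence of each gene in GENCODE M21, which was found for 250 of the 252 members. KRAB patterns occurred in 130 members, whose median log2 ratio was 0.91, and the 120 members without one had a median of 0.88. The medians were close and the tails were not. Of the KRAB members 63 (48.5%) were higher and 2 (1.54%) lower by 2-fold or more, the latter Zfp688 and Zfp58. Of the members without a KRAB pattern 51 (42.5%) were higher and 20 (16.7%) lower by 2-fold or more. Among all genes over the floor the shares were 27.8% and 23.3%, so both groups held a smaller share of lower genes than that. Of the 46 members over the floor only in the library labelled Cbl-/-Cblb-/-, 35 had a KRAB pattern and 43 were at least 2-fold higher. Part of the high tail was thus set by the floor. Among members over the floor in both libraries the medians were 0.67 with a KRAB pattern and 0.78 without. KRAB members had a median GC content of 41.2% and a median length of 3581 bases, against 48.8% and 4270 bases for members without a KRAB pattern. Expressed as residuals from a fit of the log2 ratio on gene length over all genes, the medians were 0.72 for KRAB members and 0.27 for the others. With GC content added to the fit they were 0.28 and 0.36, in the other order. The 8 members with a SCAN domain pattern, a dimerization module, had a median of 1.11, running from -0.26 in Zfp213 to 5.52 in Zfp445.

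C2H2 finger patterns numbered 10 in the median member and 36 in Zfp142. Only 6 members had none by the pattern used, among them Zfp36, whose fingers are of the CCCH kind. The 74 members with 13 or more fingers had a median log2 ratio of 1.18, with 41 (55.4%) higher and 3 (4.05%) lower by 2-fold or more. The 28 members with 1 to 3 fingers had a median of 0.75, with 11 (39.3%) higher and 10 (35.7%) lower by 2-fold or more. Among all genes over the floor the shares were 27.8% and 23.3%. In between, the 45 members with 4 to 7 fingers had 0.79 and the 97 with 8 to 12 had 0.78. Lower members thus made up a larger share of the genes with 1 to 3 fingers (35.7%) than of those with 13 or more (4.05%). As length residuals the lower members were 5 of 28 and 6 of 74, and the medians of these groups were 0.007 and 0.79. Spearman's rho between finger number and ratio was 0.26 across the 250 members, which share both libraries.

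**Figure D3:**
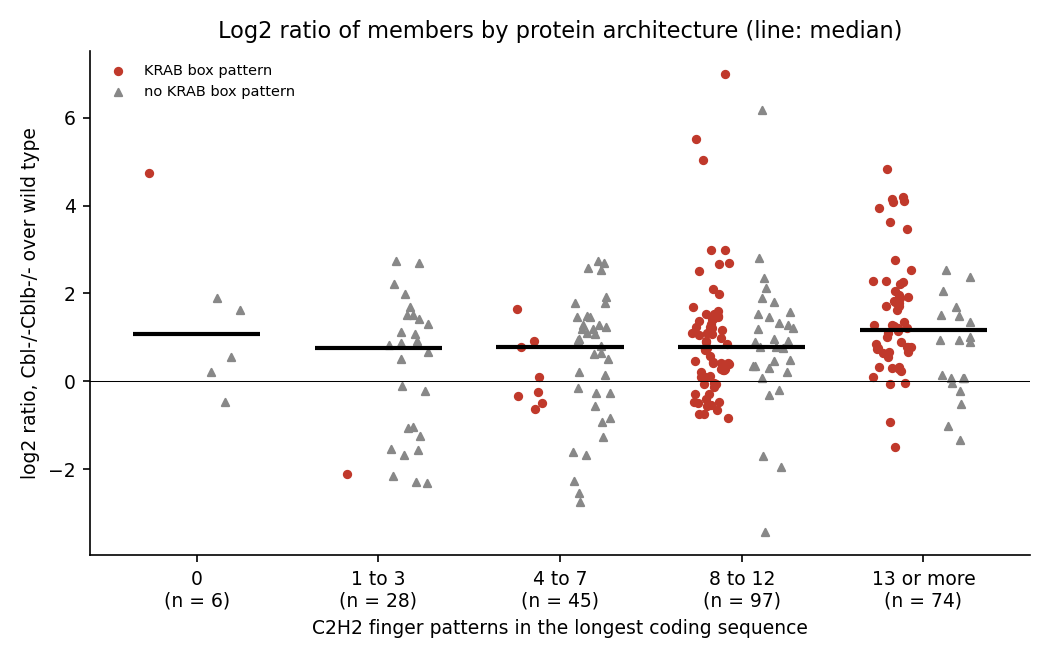
Log2 ratio of the library labelled Cbl-/-Cblb-/- over the library labelled wild type (y axis) for members grouped by the number of C2H2 finger patterns (x axis), with a circle for each member with a KRAB box pattern, a triangle for each without, and a line at the group median. Below a ratio of -1 stand 2 circles, and the medians run from 0.75 (1 to 3 fingers) to 1.18 (13 or more).

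Gene length and base composition both went with the ratio. Members were split by deposited length into 4 bins of equal size. The shortest bin (546 to 2697 bases) had a median log2 ratio of 0.22, with 18 members (28.6%) higher and 15 (23.8%) lower by 2-fold or more. The longest bin (5729 to 19017 bases) had a median of 1.24, with 40 (63.5%) higher and 0 lower. Other protein-coding genes were split at the same inner limits with no outer limit, so their end bins can also hold shorter or longer genes. Their medians in the shortest and the longest bin were -0.99 and 1.11. Higher by 2-fold or more were 7.81% of them in the shortest bin and 53.7% in the longest, and lower 49.6% and 4.47%. Members therefore stood above other genes by over 1 log2 unit in the shortest bin, and by little in the longest. The lengths of members and other genes within these open bins were not matched. The middle bins gave 0.63 and 1.07 in members, against 0.04 and 0.49 in other protein-coding genes. By GC content of the longest transcript, the lowest of 4 bins (35.4% to 40.0%) had a median of 1.24. Other protein-coding genes, again with no outer limit, had 1.07 in that bin. The highest bin (51.7% to 68.7%) had -0.07, against -0.55 in other protein-coding genes. In the highest GC bin 10 members (15.9%) were higher and 15 (23.8%) lower by 2-fold or more, against 11.9% and 35.9% of other protein-coding genes. A KRAB pattern was held by 12 of the 63 members in that bin, against 48 of 63 in the lowest. Spearman's rho of the ratio was 0.33 with length across the 252 members and -0.39 with GC content across the 251 in the annotation. Across other protein-coding genes it was 0.58 with length and -0.42 with GC content. Length and GC content were nearly unrelated among members (rho -0.07). Residuals from the length fit had a median of 0.56 in members, and with GC content in the fit 0.30, so the members' excess over genes of like length and composition was smaller than the raw median. Why the libraries differ by length and GC content was not tested.

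**Figure D4:**
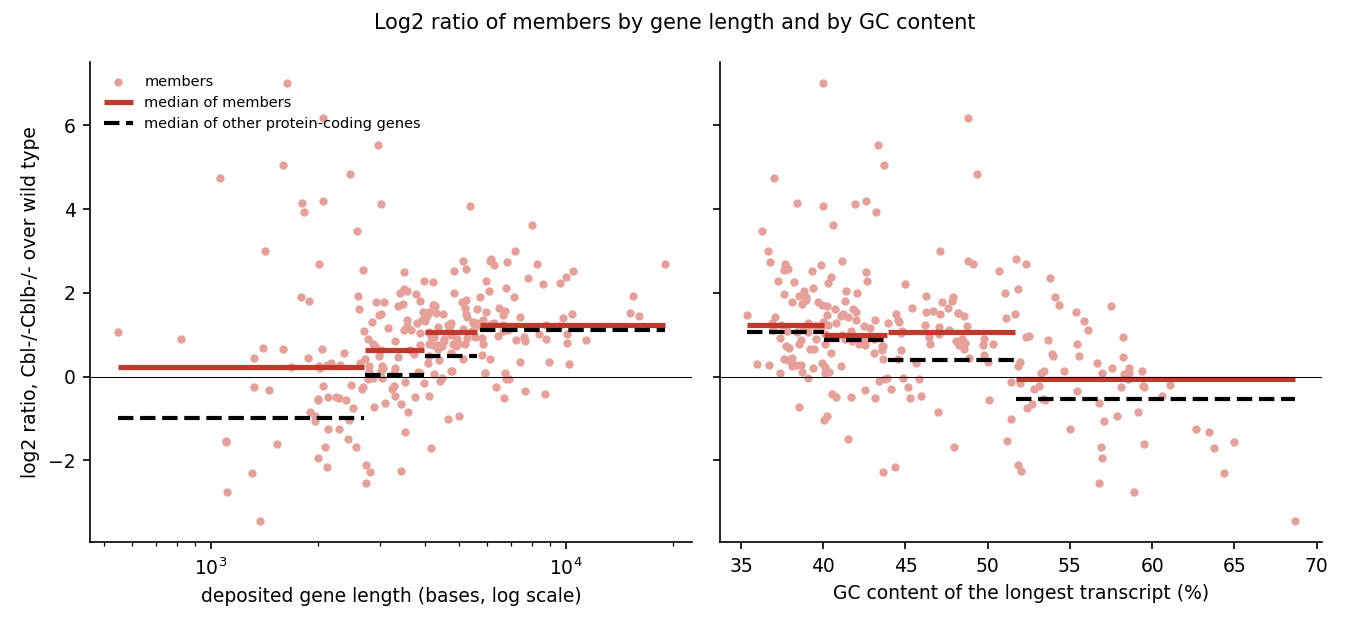
Log2 ratio of the library labelled Cbl-/-Cblb-/- over the library labelled wild type (y axis) for each member against deposited gene length in bases (left, log scale) and against GC content of the longest transcript in percent (right). Solid lines are medians of members in 4 bins. Dashed lines are medians of other protein-coding genes in bins with the same inner limits and no outer limit, drawn over the range of the members. The solid line lies above the dashed one in all 8 bins, at 1.24 against 1.11 for the longest genes and -0.07 against -0.55 for the highest GC content.

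Promoters, as 250 bases before and 50 after the gene start in RefSeq (GRCm38.p6), were matched for 210 members. Their CG dinucleotides, counted as CG on one strand, which equals the count on the other, numbered 16 in the median member promoter. The median was 13 in the 94 members at least 2-fold higher, 22 in the 19 members at least 2-fold lower and 10.5 in the 114 KRAB members. Other protein-coding genes over the floor had a median of 22, with 25 in those at least 2-fold higher and 19 in those at least 2-fold lower, so the order by direction in the members was the reverse of that in other genes. All 27025 promoters in the table had a median of 7. At least 1 CG was held by 99.5% of the member promoters, 99.6% of those of other protein-coding genes over the floor and 94.2% of all. The promoters of Zfp146 (chr7:30169692-30169991, minus strand, 13 CG) and Zfp771 (chr7:127244276-127244575, plus strand, 25 CG) are printed as the ends of the range among genes with few shared windows, with each CG in capitals.
Zfp146: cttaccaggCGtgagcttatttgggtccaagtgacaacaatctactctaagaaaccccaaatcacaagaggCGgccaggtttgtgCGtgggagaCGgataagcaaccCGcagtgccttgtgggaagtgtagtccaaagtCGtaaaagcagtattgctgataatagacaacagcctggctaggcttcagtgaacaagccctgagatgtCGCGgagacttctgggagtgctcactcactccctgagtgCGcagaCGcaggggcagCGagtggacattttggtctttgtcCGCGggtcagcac
Zfp771: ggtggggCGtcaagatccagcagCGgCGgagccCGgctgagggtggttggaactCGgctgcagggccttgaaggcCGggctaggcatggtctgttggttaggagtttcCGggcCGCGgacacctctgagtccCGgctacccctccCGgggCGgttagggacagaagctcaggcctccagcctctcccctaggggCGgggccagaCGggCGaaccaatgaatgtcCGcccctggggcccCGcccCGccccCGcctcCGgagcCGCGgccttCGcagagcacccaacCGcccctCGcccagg
Their GC contents were 53.3% and 71.7%.

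Members lay unevenly in the genome, 59 of them on chromosome 7, 35 on chromosome 17 and 25 on chromosome 13. Joining members at most 500 kb apart gave 15 clusters of at least 4 members, with 112 members in all. Clustered members had a median log2 ratio of 0.75, with 47 (42.0%) higher and 13 (11.6%) lower by 2-fold or more. The 139 outside clusters had 0.96, with 68 (48.9%) higher and 9 (6.47%) lower. Among all genes over the floor 27.8% were higher and 23.3% lower by 2-fold or more. KRAB patterns occurred in 84 of the clustered members and 46 of those outside. Ratios varied widely within clusters. On chromosome 13 (chr13:67038596-67827002), 15 members, all with KRAB patterns, ran from -1.50 in Zfp58 to 2.28 in Zfp712, with a median of 0.77. On chromosome 17 (chr17:21008903-23564238) 18 members, 17 with KRAB patterns, had a median of 1.13, 10 higher and 0 lower by 2-fold or more. The second cluster of that chromosome, with 10 members, had Zfp414 at the low end at -1.06 and Zfp955a, with 0 reads from the library labelled wild type, at the high end.

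Chromosome 7 held genes from both ends of the range. Its cluster around Zfp607 and Zfp780b (chr7:27731389-28380253) had 5 of 5 members at least 2-fold higher and a median of 1.89, against -1.02 for the 8 other protein-coding genes within it. The cluster that ends with Zfp146 (chr7:29768552-30169750) had all 10 members above 0, from 0.43 in Zfp940 to 6.18. In the cluster at chr7:4915217-5053723, 5 members without KRAB patterns, with a median GC content of 63.5%, had a median of -1.55, with 4 at least 2-fold lower. The cluster that holds Zfp771 and Zfp688 (chr7:127233061-127885996) had a median of -0.64 over 8 members, from -3.44 to 0.46 in Zfp553. Other protein-coding genes within it had a median of -0.29 (n = 16). In the cluster at chr7:24081924-25227507, Zfp575 at -2.54 and Zfp235 at 4.83 stood among 8 members with a median of -0.03, against -1.41 for the 15 other protein-coding genes within it.

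**Figure D5:**
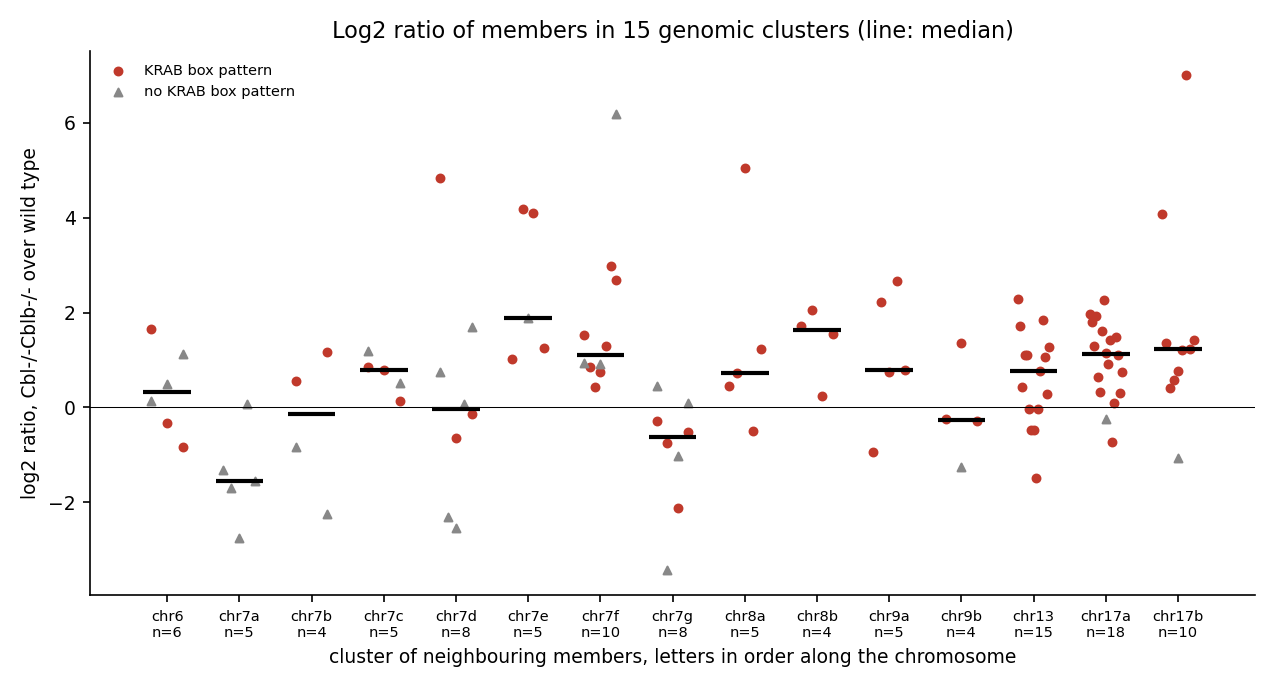
Log2 ratio of the library labelled Cbl-/-Cblb-/- over the library labelled wild type (y axis) for the 112 members in 15 clusters of neighbours (x axis, ordered by chromosome and position), with circles for members with a KRAB box pattern, triangles for those without, and a line at each cluster's median. Medians run from -1.55 (chr7a, 5 members) to 1.89 (chr7e, 5 members).

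Counting could blur neighbours of near-identical sequence. At least 20% of the exon windows were shared with another gene in 20 members, 17 of them with KRAB patterns, which had a median log2 ratio of 0.26, with 7 higher and 3 lower by 2-fold or more. The exons of 86 members overlapped another gene (median 0.76), and those of 165 did not (median 0.94). No strand setting is named in these sources, so reads from overlapping partners cannot be told apart.

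Other zinc finger families over the floor had medians close to that of the Zfp genes. Zbtb-named genes, which pair fingers with a BTB domain, had a median log2 ratio of 0.90 over 34 genes, 17 higher and 3 lower by 2-fold or more. Zkscan- and Zscan-named genes had 0.98 over 16 genes (8 higher, 1 lower), and the CCCH family named Zc3h had 0.87 over 17 genes (8 higher, 1 lower). Among all genes over the floor 27.8% were higher and 23.3% lower. Together with the Zfp genes, the 4 name families had medians from 0.87 to 0.98. As length residuals the medians were 0.56 for the Zfp genes, 0.32 for Zbtb, 0.37 for Zkscan and Zscan, and 0.44 for Zc3h.

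The authors' deposited table also gives unadjusted p-values. They come from 1 library per genotype, with no replicate behind them, and are not read here as a result about the members. In the authors' deposited table the smallest adjusted p was 0.944, and 0 members were under 0.05.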

How the data were processed

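RNA of sorted germinal centre B cells was made into TruSeq libraries and sequenced as paired 50-base reads, per the labels' protocols, with 1 library per genotype. TopHat2 2.0.10, featureCounts, DESeq2 1.4.5 and the build GRCm38 appear, without roles, in the submitters' processing notes. Not given in the sources used here are the annotation release, the strand setting and the treatment of multiply mapping reads. The signal values deposited by the authors are, per the file headers, gene reads scaled by library size. All of them were whole multiples of the value of 1 read (100% in both libraries within 0.001 read), so whole reads were recovered; the steps match a size factor of 1.43 for the library labelled Cbl-/-Cblb-/- and of 0.699 for the library labelled wild type. A count test such as edgeR's has no residual degrees of freedom with 1 library per group, so none was run on these reads. The authors' FPKM values, per the file headers, were not used further. Also deposited by the authors, per the file headers, are a shrunken log2 fold change, its standard error and a test score, and p-values. Only the adjusted p-values are quoted.

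Ratios are log2 of normalized reads plus 1, Cbl-/-Cblb-/- over wild type by label, for genes whose higher value reached 100 normalized reads. Folds carry exact conditional 95% intervals, shares Wilson intervals, and 0 reads were replaced by 3 for a bound; all cover counting error only, since reads have no molecular identifiers. Residuals come from linear fits on log2 length and its square, with GC content and its square where stated, over all genes past the floor. Positions, exons, GC content, shared 50-base windows and coding sequences came from GENCODE M21 on GRCm38, promoters from RefSeq on GRCm38.p6. KRAB, SCAN, C2H2 and CCCH patterns were searched in the translated longest coding sequence, in place of the RefSeq proteins first planned. The scripts for ratios and intervals were checked on simulated data. Analysis used Python 3.11.15, numpy 2.4.6, pandas 2.3.3, scipy 1.17.1 and matplotlib 3.10.9.

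The members and gene lists were chosen with earlier results of these data known. Named genes are Cbl and Cblb, listed genes, the 10 highest and 10 lowest ratios, the 5 members with most reads per kb, members with 0 reads in a library, the neighbours of the floor, and the 3 highest and 3 lowest corepressor genes; genes named for a sequence, a cluster's ends, an architecture or a pattern exception were chosen after their values were seen. The limits of 1.4 for longer gene models, 20% for shared windows and 500 kb for clusters were also set then. Alternatives were scaling, centring, pseudocount, floor, length and GC fits, and leaving out members with overlaps, shared windows or longer models. One gene of the marker list is not reported here.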

Additional observations from a re-analysis of the deposited data

How the results depend on the processing

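No paired analysis was possible because each genotype has 1 library, and no library could be left out. Scaling to total reads instead of the deposited size factors moved the median log2 ratio of all genes by 0.52, and with it the median of the members to 1.42, of KRAB members to 1.43, of members without a KRAB pattern to 1.39 and of the corepressor list to 1.19; 157 members were then higher and 15 lower by 2-fold or more. As residuals from the length fit the same 4 medians were 0.56, 0.72, 0.27 and 0.25. With GC content added, an alternative chosen after seeing the data for all but the first, they were 0.30, 0.28, 0.36 and 0.12, and 62 members were higher. Restricted, after seeing the data, to genes over the floor in both libraries, the members' median was 0.72, with 72 higher. That of KRAB members was then 0.67 and that of members without a KRAB pattern 0.78. Members lower by 2-fold or more numbered 12 without those whose exons overlap another gene and 14 without those with longer M21 models, which follows in part from the fewer genes left. Under centring, pseudocounts of 0.5 and 5, floors of 20, none and 100 on the mean, and without members with shared windows, the main medians kept their sign, from 0.75 to 0.91 for all members, while members higher by 2-fold or more numbered 132 with a floor of 20, 146 with none and 99 with 100 on the mean, against 115. Of 37 named members past 2-fold, 6 changed sign: with length fitted Zfp407 (-0.53), Zfp451 (-0.68) and Zfp148 (-0.11), and with GC content added Zfp407 (-0.40), Zfp451 (-0.97), Zfp644 (-0.46), Zfp148 (-0.57), Zfp207 (-0.16) and Zfp385a (0.15). The cause was not tested. Depth limits the ratios of the 35 members with under 50 reads from the library labelled wild type, and 6 of these had under 10.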

Other observations

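Split into 4 bins by mean level over both libraries, the members with the lowest levels (56.0 to 213 normalized reads) had a median log2 ratio of 1.19. Of these 63, 38 (60.3%) were higher and 3 (4.76%) lower by 2-fold or more. The 1028 other protein-coding genes of the lowest bin, which had no lower limit of its own, had a median of 0.30, with 33.9% higher and 21.8% lower. Members with the highest levels (915 to 10056 normalized reads) had a median of 0.75, with 24 (38.1%) higher and 10 (15.9%) lower. The 5759 other protein-coding genes of the highest bin, which had no upper limit, had a median of 0.06, with 24.7% higher and 24.9% lower. A member with a mean level under 100 normalized reads had to differ between the libraries to reach the floor. The ratios and counts of the lowest bin were therefore set in part by the choice of genes, for members and other genes alike. In the lowest bin 45 members had a KRAB pattern, and in the highest 8. By protein length, the shortest bin (76 to 468 residues) had a median of 0.20, with 17 higher and 14 lower, and the longest (710 to 2698 residues) had 1.21, with 36 higher and 1 lower.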
